A study of Homo sapiens with 9 samples.

Results

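The genes described here were 8 genes of prostate lineage and of the androgen axis, KLK2, KLK3, TMPRSS2, FOXA1, GATA2, FOLH1, SPDEF and TP63, out of the 27111 genes in the gene-level tables. They were taken by gene symbol, and all 8 were found in every library. The libraries came from PC3, an androgen-independent human prostate carcinoma line derived from a bone metastasis, grown as multicellular tumor spheroids (MTSs) in medium that contained Matrigel. The cells had been stably transduced with a lentiviral pSIN vector and selected with puromycin. The vector carried no insert (Empty), or the long (NF-YAl) or the short (NF-YAs) splice isoform of NF-YA, the sequence-specific subunit of the trimeric factor NF-Y that binds the CCAAT box. Each condition was 1 transduced line with 3 libraries of pooled MTSs from independent experiments, lettered A, B and C, or A, B and D for NF-YAl. All 3 lines had been infected and selected alike, and the isoform and the history of a line cannot be told apart.

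Luminal cells of the prostate secrete kallikreins and depend on androgen. FOXA1 and GATA2 are transcription factors that shape the response of the luminal cell to androgen, SPDEF is an ETS factor of luminal epithelium, and TP63 encodes p63, the transcription factor that marks basal cells. KLK2, KLK3 and TMPRSS2 are textbook targets induced by androgen, whereas FOLH1, the prostate-specific membrane antigen, is repressed by it. PC3 is known for growth without androgen and for little or no expression of the kallikrein targets.

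The libraries held from 18076979 to 27163976 expected counts. NFYA, the check of the transduction, was measured in CPM (counts scaled to library size, with TMM factors) at 91.8 ± 4.24 (mean ± SD, n = 3) in Empty, while NF-YAl had 341 ± 49.3 and NF-YAs 261 ± 5.71. Reads were counted on human transcripts and the NF-YA inserts were murine, so NFYA counts only the transgene reads that align to the human gene. KRT8, KRT18, VIM and CD44, the epithelial and mesenchymal markers known in PC3, were present in every library. The summed level of 4 fibroblast markers was 0.377 to 0.795 CPM for Empty, 0.637 to 0.941 for NF-YAl and 0.796 to 1.11 for NF-YAs, that of 4 leukocyte markers was 19.0 to 36.2 CPM for Empty, 21.6 to 33.5 for NF-YAl and 20.8 to 21.0 for NF-YAs, and that of 4 endothelial markers was 12.7 to 14.2 CPM for Empty, 6.22 to 7.11 for NF-YAl and 8.29 to 9.03 for NF-YAs. The summed level of 5 neuroendocrine markers was 0.954 to 1.299 CPM for Empty, 2.12 to 2.34 for NF-YAl and 1.40 to 2.09 for NF-YAs. Endothelial and neuroendocrine sums thus did not overlap between Empty and either NF-YA line, fibroblast sums did not between Empty and NF-YAs, and the part of these signals in the results was not tested. A gene was called when its adjusted p was under 0.01 and its log2FC (log2 of the ratio of 2 groups) was above 1 or below -1, by the quasi-likelihood test of edgeR, adjusted by Benjamini-Hochberg over 17108 genes. In bulk RNA, more cells with a transcript and more transcript per cell cannot be told apart.

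The 3 lines differed in most of the 6 genes that had enough counts to be tested. Against Empty, NF-YAl had higher GATA2, FOLH1 and TP63 and lower TMPRSS2. NF-YAs had lower TMPRSS2, GATA2 and SPDEF. Between the isoforms, FOXA1, GATA2 and FOLH1 were higher in NF-YAl. In NF-YAl against Empty, 4 of the 6 tested genes were called, where 8.27% of all tested genes were. In NF-YAs against Empty, 3 of 6 were called, where 9.34% of all tested genes were. In NF-YAl against NF-YAs, 3 of 6 were called, where 4.61% of all tested genes were. By direction, 3 rose and 1 fell in NF-YAl, where 4.76% and 3.5% of all tested genes did. In NF-YAs 0 rose and 3 fell, where 5.44% and 3.9% did, and 2 had a positive log2FC with an unadjusted edgeR p under 0.05. Between the isoforms 3 were higher in NF-YAl and 0 lower, where 1.74% and 2.86% were. DESeq2 called 3 up and 1 down, 1 up and 3 down, and 3 up and 0 down, and 0 of the 6 were lower in NF-YAl than in NF-YAs at an unadjusted edgeR p under 0.05. With no fold limit, 5, 4 and 4 of the 6 had an adjusted p under 0.01, where 19.6%, 22.6% and 11% of all tested genes had. The libraries of the groups did not overlap for 6, 5 and 6 of the 6, where 42.4%, 56.4% and 39.5% of all tested genes did not.

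KLK2 and KLK3 did not reach the minimum of counts for a test, and FOLH1 reached it only through the NF-YA lines. The first 2 comparisons share the Empty libraries.

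On the TPM scale, which is per transcript length, SPDEF had the highest mean of the 8 genes in every line. In NF-YAl D, FOXA1 stood above SPDEF (83.7 against 81.9 TPM). TPM was high for its CPM in that library. SPDEF had 81.9 TPM at 73.0 CPM in NF-YAl D, against 53.0 TPM at 87.9 CPM in NF-YAl B, and the cause was not tested. In Empty the mean was 90.7 TPM for SPDEF, 30.9 for FOXA1, 7.40 for GATA2, 5.19 for TMPRSS2, 0.733 for TP63, 0.0467 for FOLH1 and 0.0433 for KLK2, and KLK3 was listed at 0. The ranges of GATA2 and TMPRSS2 over the Empty libraries overlapped, though GATA2 was above TMPRSS2 in each of them. Those of FOLH1 and KLK2 overlapped as well. In NF-YAl the order was SPDEF at 75.2, FOXA1 at 69.1, GATA2 at 21.3, TP63 at 2.15, FOLH1 at 2.07 and TMPRSS2 at 2.05 TPM, and SPDEF overlapped FOXA1, as the last 3 genes overlapped each other in turn. In NF-YAs it was SPDEF at 37.1, FOXA1 at 17.4, GATA2 at 2.30, TP63 at 1.32, TMPRSS2 at 0.987 and FOLH1 at 0.403 TPM. There the ranges of GATA2 and TP63 overlapped, with GATA2 above TP63 in each library, and TP63 overlapped TMPRSS2. TMPRSS2 was thus near GATA2 in Empty and about level with FOLH1 in NF-YAl.

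FOXA1 (14:38058757-38065264, minus strand, GRCh37) encodes a forkhead pioneer factor that opens chromatin in luminal cells. In CPM it was measured at 86.6, 92.3 and 87.5 in Empty A, B and C, at 198, 145 and 137 in NF-YAl A, B and D, and at 47.2, 37.5 and 48.8 in NF-YAs A, B and C. Every NF-YAl library stood above every Empty library, and every NF-YAs library below it. The log2FC was 1.84 for NF-YAl against NF-YAs (SE 0.147, edgeR adjusted p = 1.57e-05), a 3.59-fold difference. Against Empty, the log2FC of FOXA1 was 0.85 for NF-YAl (SE 0.143, edgeR adjusted p = 0.000784) and -0.997 for NF-YAs (SE 0.145, edgeR adjusted p = 0.000241). Both passed the p limit and missed the fold limit, the latter narrowly. Without Empty A, Empty C, NF-YAs A or NF-YAs C in turn, the value in NF-YAs was -1.01, -1.01, -1.04 and -1.07 and was called. TTC6, a gene on the other strand that overlaps FOXA1, had means of 24.1 CPM for Empty, 52.9 for NF-YAl and 12.4 for NF-YAs, with log2FC of 1.13 and -0.95 against Empty. The kit was stranded, but the strand setting of the counting is not given in the sources used here, and the part of shared reads was not tested.

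GATA2 (3:128198270-128212044, minus strand, GRCh37) encodes a zinc finger factor that acts at androgen-responsive genes. It was measured at 18.4, 26.98 and 19.9 CPM in Empty A, B and C, at 66.6, 53.4 and 34.3 in NF-YAl A, B and D, and at 6.89, 3.18 and 7.83 in NF-YAs A, B and C. The 3 lines did not overlap, and the order was the same as for FOXA1. GATA2 had the largest log2FC of the 6 tested genes between the isoforms, 3.10 (SE 0.311, edgeR adjusted p = 5.17e-05), an 8.59-fold difference. It rose in NF-YAl by a log2FC of 1.24 (SE 0.279, edgeR adjusted p = 0.00504) and fell in NF-YAs by 1.86 on the log2 scale (SE 0.306, edgeR adjusted p = 0.000571). The rise rested on single libraries for its call. Without Empty A, Empty C, NF-YAl A or NF-YAl B the log2FC was 1.14, 1.18, 1.01 and 1.21, and the edgeR adjusted p was 0.0264, 0.0272, 0.0103 and 0.0182. GATA2-AS1, on the opposite strand of GATA2, had means of 4.52 CPM for Empty, 4.83 for NF-YAl and 0.594 for NF-YAs. It fell with GATA2 in NF-YAs by 2.91 on the log2 scale (SE 0.327, edgeR adjusted p = 3.77e-05), and its log2FC in NF-YAl was 0.10 (SE 0.261, edgeR adjusted p = 0.822). The reads of this antisense gene and of GATA2 cannot be told apart without the strand setting.

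Of 7 further FOXA and GATA genes, 3 were tested (FOXA2, GATA3 and GATA6), and 1 was called, in NF-YAs, where 9.34% of all tested genes were. GATA6, a factor of endoderm and other epithelia, rose in NF-YAs by a log2FC of 1.16 (SE 0.139, edgeR adjusted p = 6.00e-05). Over the 9 libraries, the genes most like FOXA1 in log2 CPM were SUCO (Pearson r = 0.991), GATA2 (r = 0.985) and CADM4 (r = 0.983). Those most like GATA2 were FOXA1, CADM4 (r = 0.983) and HIVEP2 (r = 0.979). These 9 points form 3 lines, so that r carries mainly the differences between lines.

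SPDEF (6:34505579-34524110, minus strand, GRCh37) encodes the prostate-derived ETS factor of secretory epithelium. Its level was 132, 161 and 135 CPM in Empty A, B and C, 128, 87.9 and 73.0 in NF-YAl A, B and D, and 48.8, 55.1 and 51.3 in NF-YAs A, B and C. NF-YAs was the lowest line with no overlap, and NF-YAl A stood just under the lowest Empty library. SPDEF fell in NF-YAs by 1.46 on the log2 scale (SE 0.174, edgeR adjusted p = 5.78e-05), which left 0.363 of the Empty level. In NF-YAl the log2FC was -0.57 (SE 0.170, 95% confidence interval -0.94 to -0.20, edgeR adjusted p = 0.0235), which missed the limit. On the TPM scale NF-YAl (53.0 to 90.6) and Empty (77.3 to 101) overlapped. Between the isoforms the log2FC was 0.90 (SE 0.173, edgeR adjusted p = 0.00338), under the fold limit. Without NF-YAl D it was 1.06 and was called. The genes most like SPDEF over the 9 libraries were OPRL1 (r = 0.993), TNFRSF21 (r = 0.986) and C6orf106 (r = 0.986).

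Of 23 further ETS genes, 19 were tested. In NF-YAl 0 rose by edgeR and 1 by DESeq2 (4 at an unadjusted p under 0.05) and 3 fell (ELF3, ELF4 and ELF5). Of all tested genes, edgeR called 4.76% higher and 3.5% lower there. In NF-YAs 1 rose (FLI1) and 3 fell (EHF, ELF3 and ELF5), where 5.44% and 3.9% of all tested genes did. ELF5 had 24, 47 and 24 counts in Empty A, B and C and at most 2 in any NF-YA library. It reached the minimum of counts for a test only through Empty, where it was highest. FLI1 lost its call without Empty B, Empty C or NF-YAs B (edgeR adjusted p = 0.0207, 0.0218 and 0.0192). The median log2FC of the 19 was -0.08 in NF-YAl and -0.10 in NF-YAs, beside 0.01 and -0.00 over all tested genes. ELF3, an epithelial ETS factor, was measured at 50.4, 31.9 and 54.4 CPM in Empty A, B and C, 8.33, 6.75 and 15.4 in the NF-YAl libraries, and 2.10, 1.34 and 2.07 in the NF-YAs libraries. It fell by 2.16 in NF-YAl (SE 0.285, edgeR adjusted p = 0.000142) and by 4.63 in NF-YAs (SE 0.342, edgeR adjusted p = 2.26e-06) on the log2 scale. EHF, a close relative of ELF3 in epithelium, had 45.0 to 56.8 CPM for Empty, 30.9 to 52.0 for NF-YAl and 3.73 to 7.46 for NF-YAs. In EHF the difference between the isoforms was called, at a log2FC of 2.71 (SE 0.253, edgeR adjusted p = 3.74e-05). ELF3 was also higher in NF-YAl than in NF-YAs (log2FC 2.47, SE 0.343, edgeR adjusted p = 0.000477). SPDEF, EHF and ELF3 were therefore all lowest in NF-YAs.

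TP63 (3:189349178-189615065, plus strand, GRCh37) was measured at 2.73, 3.77 and 3.46 CPM in Empty A, B and C, at 7.37, 7.89 and 7.43 in NF-YAl A, B and D, and at 6.41, 3.58 and 5.81 in NF-YAs A, B and C. NF-YAl stood above both other lines, and NF-YAs B lay within the range of Empty. TP63 rose in NF-YAl by a log2FC of 1.19 (SE 0.219, edgeR adjusted p = 0.00144). The log2FC of NF-YAs was 0.66 (SE 0.222, 95% confidence interval 0.18 to 1.15, edgeR adjusted p = 0.0357), and the isoforms differed by 0.52 (SE 0.215, 95% confidence interval 0.06 to 0.99, edgeR adjusted p = 0.0988), both under the limits. The 100 genes around TP63, 50 on each side, had a median log2FC of 0.49 in NF-YAl and of 0.10 in NF-YAs. At the other loci this median lay between -0.39 and 0.29. One transcript, NM_001329964.1, took from 91.1% to 100% of the TP63 TPM in every library. A single transcript also held 94.9% to 97.1% of SPDEF. For the tested genes with counts for shares, 40 exact permutation tests of transcript shares gave p from 0.2 to 1 (two-sided, n = 3 against 3, smallest possible 0.1). TMPRSS2 transcripts could not be told apart well, as their shares ran from 0% to 100% between libraries of the same line.

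The promoter windows of FOXA1, GATA2, SPDEF and TP63 are shown because NF-YA binds the CCAAT box and these genes differed between the lines. They come from RefSeq (GRCh38.p14), 5′ to 3′, from 250 bases before to 50 after the start, with CCAAT and its reverse complement ATTGG in capitals. Of the 8 genes, 6 had entries, and TMPRSS2 and FOLH1 had none.
FOXA1 (chr14:37595200-37595499, minus strand): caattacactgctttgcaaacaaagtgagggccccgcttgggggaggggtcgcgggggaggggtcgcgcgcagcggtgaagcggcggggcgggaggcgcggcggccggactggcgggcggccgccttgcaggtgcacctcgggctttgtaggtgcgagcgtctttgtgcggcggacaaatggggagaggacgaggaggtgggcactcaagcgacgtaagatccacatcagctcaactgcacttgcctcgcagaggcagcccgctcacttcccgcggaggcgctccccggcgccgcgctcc
GATA2 (chr3:128493152-128493451, minus strand): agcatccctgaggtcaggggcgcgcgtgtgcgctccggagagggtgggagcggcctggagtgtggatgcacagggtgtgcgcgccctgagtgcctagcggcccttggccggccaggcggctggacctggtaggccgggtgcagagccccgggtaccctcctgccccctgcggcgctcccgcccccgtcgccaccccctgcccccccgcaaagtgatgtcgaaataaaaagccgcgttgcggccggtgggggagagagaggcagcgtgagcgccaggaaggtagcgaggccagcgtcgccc
GATA2 (chr3:128488481-128488780, minus strand): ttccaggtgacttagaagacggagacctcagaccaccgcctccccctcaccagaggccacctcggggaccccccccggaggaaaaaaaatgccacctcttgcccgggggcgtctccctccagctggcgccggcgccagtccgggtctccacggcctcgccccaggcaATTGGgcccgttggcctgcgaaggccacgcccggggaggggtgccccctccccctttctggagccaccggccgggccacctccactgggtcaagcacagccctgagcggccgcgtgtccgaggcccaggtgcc
SPDEF (chr6:34556280-34556579, minus strand): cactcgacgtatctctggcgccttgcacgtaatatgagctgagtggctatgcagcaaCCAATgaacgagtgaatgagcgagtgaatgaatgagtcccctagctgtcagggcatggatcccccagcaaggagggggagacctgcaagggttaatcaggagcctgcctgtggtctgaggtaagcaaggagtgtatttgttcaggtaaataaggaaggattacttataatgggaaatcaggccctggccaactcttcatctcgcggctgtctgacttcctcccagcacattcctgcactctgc
TP63 (chr3:189631139-189631438, plus strand): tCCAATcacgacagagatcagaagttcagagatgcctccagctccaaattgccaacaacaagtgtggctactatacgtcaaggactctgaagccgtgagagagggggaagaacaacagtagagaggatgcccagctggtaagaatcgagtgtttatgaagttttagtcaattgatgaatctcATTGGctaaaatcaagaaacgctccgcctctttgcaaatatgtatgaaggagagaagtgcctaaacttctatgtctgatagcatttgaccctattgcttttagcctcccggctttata
The motif was searched as CCAAT on both strands, and no other motif was searched, and 34.6% of all 35116 promoters in the table of this length hold it. The FOXA1 window and the upstream GATA2 window hold none. The downstream GATA2 window holds ATTGG 83 bases before the start, and the SPDEF window holds CCAAT 193 bases before it. The TP63 window holds CCAAT 249 and ATTGG 68 bases before the start. The KLK2 window, not printed, holds CCAAT 227 bases before the start, and the KLK3 window holds none. A match is a sequence description and not a binding site.

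**Figure D1:**
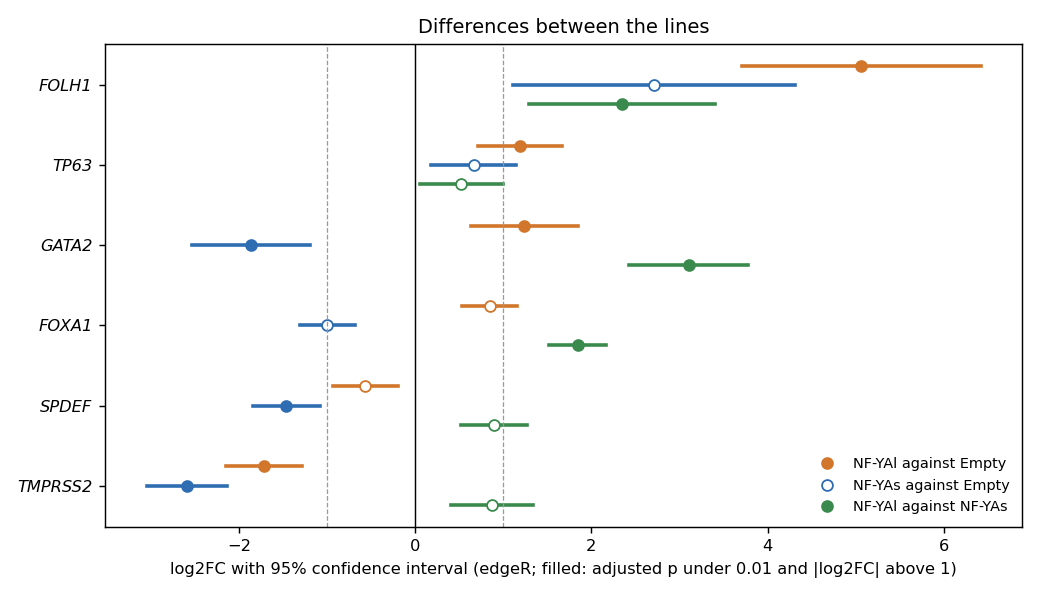
Log2FC (horizontal axis) with its 95% confidence interval for the 6 tested genes in the 3 comparisons. Filled points passed an adjusted p under 0.01 and a log2FC beyond 1 or -1 (dashed lines). FOLH1 in NF-YAl lies farthest to the right, TMPRSS2 lies to the left in both NF-YA lines, and GATA2 has opposite signs in the NF-YA lines.

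ONECUT2, a homeobox factor known in androgen-independent prostate cancer, rose in both NF-YA lines, by a log2FC of 1.75 in NF-YAl (SE 0.177, edgeR adjusted p = 2.27e-05) and 1.06 in NF-YAs (SE 0.178, edgeR adjusted p = 0.000671). Without Empty B, Empty C or NF-YAs A the latter was 0.92, 0.996 and 0.95 and missed the fold limit. Of 25 genes of androgen synthesis and inactivation, 16 were tested. In NF-YAl 0 of these were called by edgeR and 0 by DESeq2, 3 had an adjusted p under 0.01, and 3 were higher and 5 lower at an unadjusted p under 0.05. Of all tested genes, edgeR called 8.27% there, and 19.6% had an adjusted p under 0.01. AKR1C1, which inactivates steroid hormones, fell in NF-YAs by 2.05 on the log2 scale (SE 0.427, edgeR adjusted p = 0.00282), a call lost without Empty B, Empty C, NF-YAs A or NF-YAs B (edgeR adjusted p = 0.0111, 0.0130, 0.0130 and 0.0151).

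KLK3, which encodes prostate-specific antigen (19:51358171-51364020, plus strand, GRCh37), had 0 counts in all 9 libraries. KLK2, the neighbouring kallikrein gene (19:51364824-51383823, plus strand), had 3, 2 and 2 counts in Empty A, B and C and 0 in the 6 other libraries. Both were thus at or under the floor of 3 counts in every library, which is 0.118 to 0.162 CPM, and no fold was computed. KLK2 and KLK3 were not detectable at this depth in either NF-YA line.

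TMPRSS2, the membrane serine protease (21:42836227-42903043, minus strand, GRCh37), was measured at 11.7, 18.3 and 13.2 CPM in Empty A, B and C, at 4.40, 4.09 and 4.64 in NF-YAl A, B and D, and at 2.26, 2.89 and 2.03 in NF-YAs A, B and C. The 3 lines did not overlap, with Empty highest and NF-YAs lowest. In NF-YAl, TMPRSS2 fell by 1.72 on the log2 scale (SE 0.196, edgeR adjusted p = 5.27e-05) and in NF-YAs by 2.59 (SE 0.210, edgeR adjusted p = 4.10e-06), which is 3.28-fold and 6.01-fold lower. The isoforms differed by 0.87 (SE 0.216, 95% confidence interval 0.40 to 1.34, edgeR adjusted p = 0.0130), which missed the p limit. MX1, an interferon-induced gene that overlaps TMPRSS2 on the other strand, had means of 187 CPM for Empty, 29.5 for NF-YAl and 119 for NF-YAs. Its log2FC was -2.66 in NF-YAl (SE 0.231, edgeR adjusted p = 7.59e-06) and -0.65 in NF-YAs (SE 0.215, edgeR adjusted p = 0.0328), so MX1 was lowest in NF-YAl and TMPRSS2 was lowest in NF-YAs. The genes most like TMPRSS2 over the 9 libraries were ANGPTL4 (r = 0.991), OPN3 (r = 0.988) and RBP4 (r = 0.988).

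Related membrane proteases and their inhibitors, 17 genes of which 9 were tested, had 1 gene called in each comparison, beside 8.27%, 9.34% and 4.61% of all tested genes. SPINT1, an inhibitor of such proteases, rose in NF-YAl by a log2FC of 1.16 (SE 0.10, edgeR adjusted p = 7.58e-06). TMPRSS15, the enteropeptidase, fell in NF-YAs by 1.95 on the log2 scale (SE 0.254, edgeR adjusted p = 0.000109), and it was the gene called between the isoforms, higher in NF-YAl. That call between the isoforms was lost in 12 of 19 alternatives. The median log2FC of the 9 genes was -0.09 in NF-YAl and -0.12 in NF-YAs.

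FOLH1 (11:49166644-49230190, minus strand, GRCh37) had a low level in every library. It was measured at 0.0419, 0.159 and 0.118 CPM in Empty A, B and C, at 5.73, 3.19 and 2.46 in NF-YAl A, B and D, and at 1.24, 0.199 and 0.783 in NF-YAs A, B and C. All NF-YA libraries stood above Empty, but NF-YAs B only by a small margin. The ratio of pooled counts was 34.0 for NF-YAl against Empty (95% interval 17.0 to 79.5), 6.78 for NF-YAs against Empty (3.16 to 16.7) and 5.01 for NF-YAl against NF-YAs (3.62 to 7.07), and these intervals cover counting error only. In the edgeR test the log2FC was 5.06 (SE 0.624, adjusted p = 8.70e-05) in NF-YAl, 2.71 (SE 0.734, adjusted p = 0.0126) in NF-YAs and 2.35 (SE 0.484, adjusted p = 0.00491) between the isoforms. The second missed the p limit. It passed without NF-YAs B, at a log2FC of 3.16 (edgeR adjusted p = 0.00311). The difference between the isoforms lost its call without NF-YAl B, NF-YAs B or NF-YAs C, at log2FC of 2.46, 1.90 and 2.41 (edgeR adjusted p = 0.0109, 0.0167 and 0.0241). FOLH1B is a near-identical copy, and reads of both can be split by the counting. With both summed, an alternative chosen after seeing the data, FOLH1 in NF-YAs had a log2FC of 2.83 (edgeR adjusted p = 0.00876) and was called.

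Of 7 relatives of FOLH1 and transferrin receptors, 5 were tested. NAALADL2 and CPQ, a secreted carboxypeptidase, rose in NF-YAl by a log2FC of 1.13 (SE 0.170, edgeR adjusted p = 0.000355) and 1.57 (SE 0.141, edgeR adjusted p = 9.59e-06). CPQ rose in NF-YAs as well (log2FC 1.31, SE 0.141, edgeR adjusted p = 2.83e-05), and TFR2 was called lower there. TFR2 had 1, 2 and 3 counts in NF-YAs A, B and C and reached the minimum of counts for a test only through the other lines. The genes most like FOLH1 over the 9 libraries included EDEM1 (r = 0.981) and RGL3 (r = 0.976). For TP63 they were BCKDHB (r = 0.952), ARMC8 (r = 0.952) and MAP3K7 (r = 0.945).

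Androgen-regulated genes beyond the 8 rose and fell in both lines, with more calls down than up. Of 37 genes, 31 were tested. In NF-YAl 1 rose (ACPP, prostatic acid phosphatase) and 6 fell, where 4.76% and 3.5% of all tested genes did. Those that fell included KLK4, STEAP1, STEAP4, NDRG1 and SGK1, and 24 were not called. ACPP reached the minimum of counts for a test only through the NF-YA lines. In NF-YAs 1 rose and 5 fell (STEAP4, NDRG1, C1orf116, SGK1 and ERRFI1), where 5.44% and 3.9% of all tested genes did, and 25 were not called. The median log2FC was -0.16 for NF-YAl and -0.23 for NF-YAs, beside 0.01 and -0.00 over all tested genes. On log2(TPM + 0.1) limma called 3 up and 1 down in NF-YAl and 1 up and 4 down in NF-YAs, so the balance in NF-YAl turned with the scaling.

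STEAP4, a metalloreductase, had 3.54 to 5.43 CPM for Empty, 1.72 to 2.23 for NF-YAl and 0.697 to 0.829 for NF-YAs. It fell by 1.24 in NF-YAl (SE 0.228, edgeR adjusted p = 0.00144, and 0.0104 without Empty C) and by 2.60 in NF-YAs (SE 0.257, edgeR adjusted p = 1.59e-05), the same order as TMPRSS2. C1orf116 fell in NF-YAs by 3.69 on the log2 scale (SE 0.387, edgeR adjusted p = 2.36e-05) and NDRG1, a gene also induced by hypoxia, by 1.82 (SE 0.124, edgeR adjusted p = 1.45e-06). SGK1, a kinase also induced by glucocorticoids, fell by 1.35 in NF-YAl (SE 0.235, edgeR adjusted p = 0.000995), and ERRFI1, an inhibitor of EGFR signalling, fell by 1.41 in NF-YAs (SE 0.287, edgeR adjusted p = 0.00237, and 0.0148 and 0.0138 without NF-YAs B and C). Between the isoforms 3 androgen-regulated genes were higher in NF-YAl (STEAP4, TRPM8 and C1orf116) and 2 were lower, among them KLK4. Of all tested genes, 1.74% were higher and 2.86% lower. The STEAP4 call between the isoforms was lost in 6 of 19 alternatives, those without NF-YAs A, B or C among them.

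The other kallikreins were low, and 7 of 14 listed genes were tested. Several passed the filter only through Empty, where they were highest, so their number that fell is no measure for the family. KLK8 had 2.43, 3.46 and 2.52 CPM in Empty and was at or under 3 counts in every NF-YAl library. The pooled counts of NF-YAl were 63.3-fold below those of Empty (95% interval 21.4 to 309.6, counting error only). KLK4, an androgen-induced kallikrein, was 51.5-fold lower (17.3 to 252) in NF-YAl and had 1.40, 0.995 and 1.11 CPM in NF-YAs. KLK5 was 125-fold lower in NF-YAl (22.0 to 4955), where 1 count was seen in all, and KLK10 fell in NF-YAl by 1.85 on the log2 scale (SE 0.244, edgeR adjusted p = 0.000144). In NF-YAl 5 of the 7 were called lower and in NF-YAs 3, where 3.5% and 3.9% of all tested genes were. In either line edgeR and DESeq2 called 0 higher, nor was any higher at an unadjusted p under 0.05. Of all tested genes, edgeR called 4.76% and 5.44% higher.

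**Figure D2:**
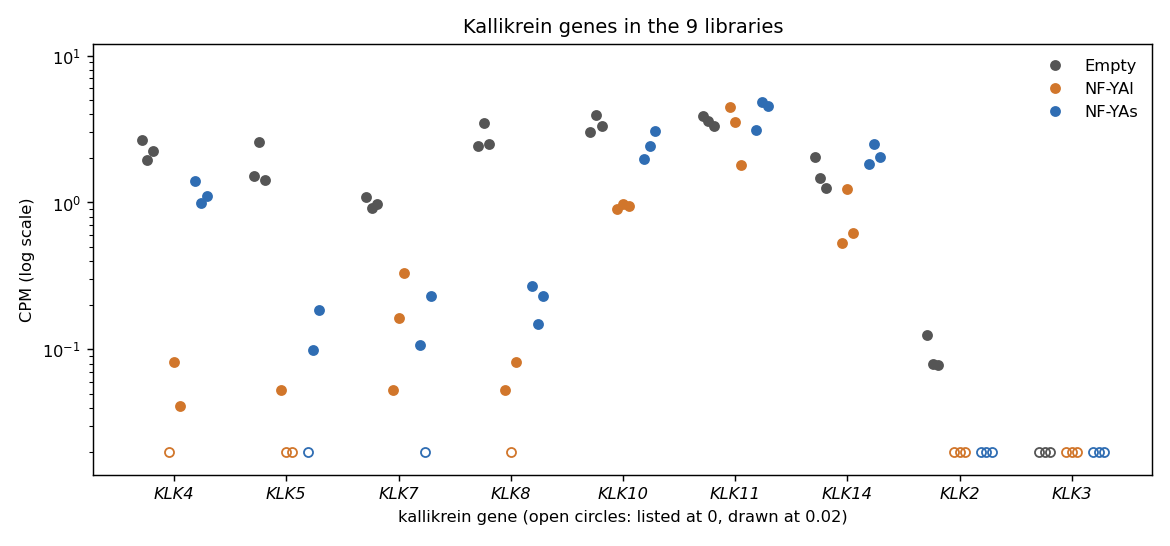
CPM (log axis) of 9 kallikrein genes in the 3 lines, with 1 point per library and values of 0 as open circles drawn at 0.02. KLK4, KLK5, KLK7 and KLK8 lie highest in Empty, KLK11 overlaps between the lines, and KLK3 is at 0 throughout.

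Luminal and basal markers moved in both directions. Of 25 luminal markers 24 were in the tables and 20 were tested. The median log2FC of the 20 was 0.00 in NF-YAl and -0.31 in NF-YAs. In NF-YAl 3 rose, EPCAM and ACPP among them, and 5 fell, among them KRT8, DPP4, CLDN4 and TFF3. Of all tested genes, 4.76% rose and 3.5% fell there. In NF-YAs 3 rose, EPCAM among them, and 5 fell (CDH1, AGR2, DPP4, CLDN4 and CLDN7). Of all tested genes, 5.44% rose and 3.9% fell in NF-YAs. EPCAM, an epithelial adhesion protein, was measured at 0.945 to 1.05 CPM for Empty, 3.35 to 5.30 for NF-YAl and 2.19 to 3.13 for NF-YAs. Its log2FC was 2.16 in NF-YAl (SE 0.249, edgeR adjusted p = 5.49e-05) and 1.46 in NF-YAs (SE 0.255, edgeR adjusted p = 0.000878). KRT8, a keratin of simple epithelia, fell in NF-YAl by 1.33 on the log2 scale (SE 0.0979, edgeR adjusted p = 2.50e-06). CDH1, E-cadherin, fell in NF-YAs by 1.33 on the log2 scale (SE 0.235, edgeR adjusted p = 0.000931), and it was higher in NF-YAl than in NF-YAs by a log2FC of 1.503 (SE 0.235, edgeR adjusted p = 0.000978).

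Of 29 basal markers 24 were tested. KRT5, the keratin that defines basal cells with p63, had at most 0.0822 CPM in any library. KRT15, another keratin on this list, had 105 to 133 CPM for Empty, 124 to 366 for NF-YAl and 72.4 to 85.0 for NF-YAs. Between the isoforms the log2FC of KRT15 was 1.52 (SE 0.286, edgeR adjusted p = 0.00287), a call lost without NF-YAs A, B or C. In NF-YAl 2 basal markers rose (JAG2 and PDPN) and 5 fell (COL17A1, LAMB3, CAV1, S100A2 and IL33), where 4.76% and 3.5% of all tested genes did. In NF-YAs 1 rose (SNAI2) and 2 fell (JAG2 and S100A2), where 5.44% and 3.9% of all tested genes did. The median log2FC of the 24 was -0.31 in NF-YAl and -0.24 in NF-YAs. PDPN, podoplanin, had 0.126 to 0.238 CPM for Empty, 3.74 to 9.55 for NF-YAl and 0.377 to 0.507 for NF-YAs, a log2FC of 4.96 in NF-YAl (SE 0.438, edgeR adjusted p = 8.70e-06). PDPN had at most 6 counts in any Empty library, and it reached the minimum of counts for a test only through NF-YAl, where it was highest. JAG2, a Notch ligand, had opposite directions, 1.20 in NF-YAl (SE 0.184, edgeR adjusted p = 0.000397) and -1.43 in NF-YAs (SE 0.202, edgeR adjusted p = 0.000192). SNAI2, a repressor of epithelial genes, rose in NF-YAs by a log2FC of 1.82 (SE 0.222, edgeR adjusted p = 6.96e-05). Of 20 partners and targets of p63, 18 were tested, and in NF-YAl 1 rose and 1 fell, where 4.76% and 3.5% of all tested genes did. DSP, desmoplakin, fell by 2.46 on the log2 scale (SE 0.389, edgeR adjusted p = 0.000496). In NF-YAs 0 of the 18 were called by edgeR or DESeq2. There 5 had an edgeR adjusted p under 0.01, and 5 were higher and 4 lower at an unadjusted p under 0.05. Of all tested genes, edgeR called 9.34% in NF-YAs, and 22.6% had an adjusted p under 0.01. TP73, which encodes a relative of p63, was higher in NF-YAl than in NF-YAs by a log2FC of 1.06 (SE 0.232, edgeR adjusted p = 0.00697), a call lost without any of 8 libraries in turn (edgeR adjusted p 0.0114 to 0.0353).

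**Figure D3:**
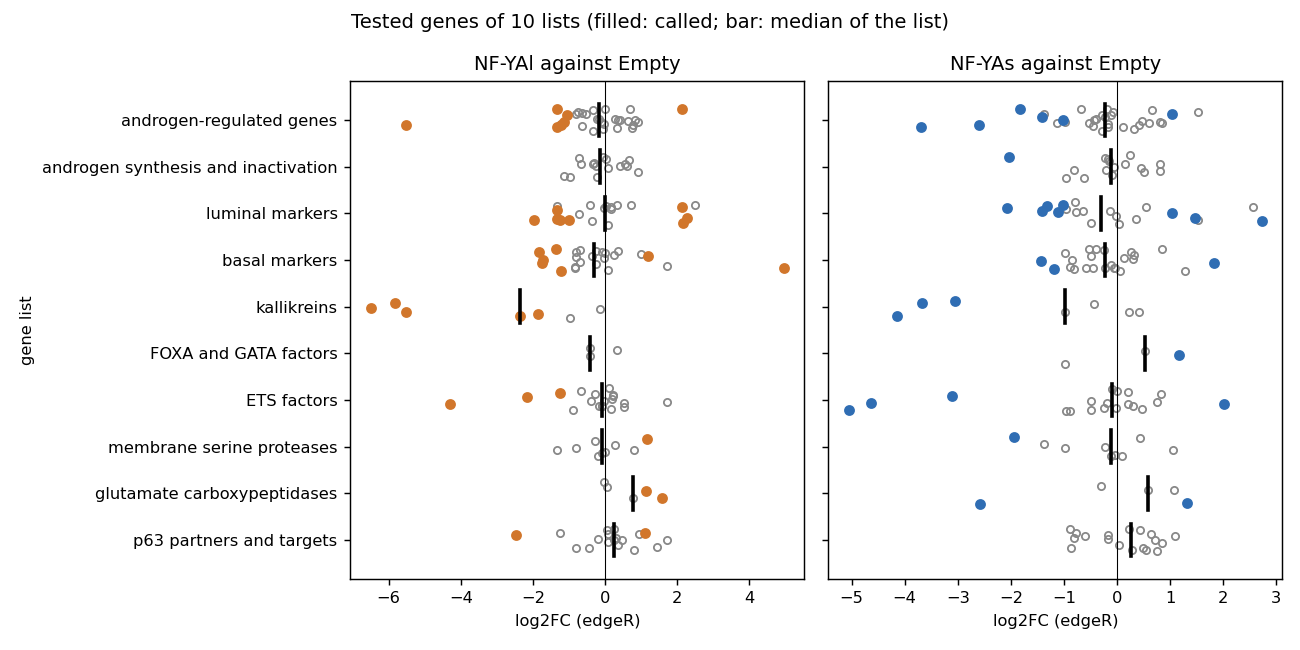
Log2FC (horizontal axis) of the tested genes of 10 gene lists (vertical axis) in NF-YAl (left) and NF-YAs (right) against Empty. Filled points were called and black bars mark the median of each list; in the androgen-regulated list more called genes lie to the left of 0 than to the right in both lines.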

How the data were processed

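RNA-seq libraries of total RNA from PC3 MTSs were prepared by the authors with a stranded kit. Reads were aligned by the authors to human transcripts (GRCh37) with bowtie2 in RSEM, and the deposited expected counts and TPM of genes and transcripts were used. The expected counts were deposited without normalization, RSEM had scaled the deposited TPM to one total per library, and the transcript share of a gene was deposited as a percent. Library sizes were 18076979 to 27163976 counts. Groups came from the labels. After rounding, edgeR 4.0.16 (R 4.3.3) was run on the expected counts (filterByExpr, TMM scaling, one fit of the 9 libraries, adjusted over 17108 genes), checked on simulated data. SEs are |log2FC| divided by the square root of F. Alternatives were DESeq2 1.42.0, limma 3.58.1 on log2(TPM + 0.1) and log2(TPM + 1), RLE scaling, a minimum of 10 counts in every library, no filter, a replicate block, 2-group fits and fits without each library. An adjusted p limit of 0.05 and the sum of FOLH1 and FOLH1B were also taken as alternatives. Genes were named by rule: the 8 genes and, per list and comparison, up to 4 called genes per direction with no overlap and a mean of 2 CPM or more in the higher group, and the 3 genes most like each member. Genes given only in counts of called genes, and KLK5, KLK7, KLK11, ELF5, TFR2, TTC6, MX1, GATA2-AS1, KRT5 and FOLH1B, were named after their values were seen. Members and lists were chosen with earlier results of these data known. Libraries of a line may share culture history, and p-values measure the spread between them. Chromosome positions are GENCODE's, in GRCh37. Some genes that this rule picks are not reported here.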

Additional observations from a re-analysis of the deposited data

Results flagged for a closer look

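Of the 6 tested genes, 3 were called when NF-YAl was tested against NF-YAs directly, where 4.61% of all tested genes were. The difference was a log2FC of 1.84 for FOXA1 and 3.10 for GATA2, which rose or stood higher in NF-YAl and lower in NF-YAs, and 2.35 for FOLH1, which stood higher in both lines than in Empty. FOLH1 reached the minimum of counts for a test only through the NF-YA lines, and lost this call without NF-YAl B, NF-YAs B or NF-YAs C. SPDEF also passed the p limit between the isoforms (edgeR adjusted p = 0.00338) and missed the fold limit, at 0.90. For FOXA1 and GATA2 every library of each line lay on its own side of Empty.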

How the results depend on the processing

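With letters as a replicate block, 5 of the 8 genes were called in NF-YAs against Empty (1 up and 4 down), where 3 were without it, since FOXA1 and FOLH1 also passed, and the cause was not tested. Over all genes the block called 1547, 1730 and 989 in the 3 comparisons, in place of 1414, 1598 and 788. The labels do not say that a letter marks a shared experiment. The correlation of residuals over genes was -0.0652 to 0.253 (mean 0.0862) for 7 pairs of a letter and -0.22 to 0.163 (mean -0.0299) for 20 pairs of different letters, so the letters were not taken as pairs, and whether they are was not settled. Under all other settings the number of called genes stayed within 1.5 times (3 to 5, 3 to 4 and 2 to 4 in the 3 comparisons). Of the values of the 8 genes, 311 kept direction and side of the limits, 18 passed limits they had missed and 9 lost their call. Of those of other genes, picked by the naming rule or named after their values were seen (MX1, TTC6 and GATA2-AS1), 1306 kept both and 110 lost their call, and no value of either changed sign. On log2(TPM + 0.1), the median of all genes shifted to 0.29 in NF-YAl and 0.17 in NF-YAs, and higher genes made up 78.4% and 71.2% of the calls in place of 57.6% and 58.3%. Of genes in the 11 lists, 34, 30 and 19 were called in the 3 comparisons, against 22, 14 and 11 on log2(TPM + 1), and 61, 62 and 37 with no fold limit. The third count was 12 to 24 without single libraries, and 12 without NF-YAs A, B or C each. On log2(TPM + 0.1), FOXA1 in NF-YAl was called at 1.13, and TP63 in NF-YAl missed the fold limit on log2(TPM + 1), at 0.84. On log2(TPM + 1), 675, 690 and 310 genes of the series were called in place of 1414, 1598 and 788, and without NF-YAs C 525 in the isoform comparison. The fit of 2 groups alone gave FOLH1 between the isoforms an edgeR adjusted p of 0.0153. FOLH1 in NF-YAs passed in 9 of 17 alternatives, DESeq2 and no filter among them. Those 9 include the main fit at a looser limit, an adjusted p under 0.05 (edgeR adjusted p = 0.0126). They also include the sum with FOLH1B, chosen after seeing the data. Depth limits KLK2, KLK3 and FOLH1 in Empty.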
